A study of Mus musculus with 6 samples.

Results

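Of 6 bulk RNA libraries made from mouse bladder tumor organoids, 2 held chromosome 3 genes at lower levels as a block, and they are described here against the other 4. Organoids are small cultures that grow in 3 dimensions from tumor cells. The 2 libraries, called the chromosome 3-low libraries below, are the third replicate of each treatment, SRT1720 3 and Vehicle 3. They were picked because of their chromosome 3 values. Those values and every other difference between the 2 libraries and the other 4 are therefore given as a description, and no p-value is printed for them. An adjusted p from limma served only as a cut to count and pick genes outside chromosome 3. All 6 libraries came from C57BL/6 mice and from total RNA. SRT1720, a compound sold as a SIRT1 activator (SIRT1 is a NAD-dependent deacetylase), was given to 3 of them, and the other 3 received vehicle. The series set out to compare these treatments in relation to SIRT1 and HIF, the transcription factor of the hypoxia response. The labels give no dose, duration or age. They also do not say that replicates are separate cultures or animals, and p-values therefore reflect only how these samples vary, which may be technical.

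In a diploid cell each autosome is present as a pair, and the RNA of most genes follows the number of copies of the gene to some degree. RNA alone, however, reports a level and not a copy number, and DNA was not analysed here. The bladder lining is an epithelium with basal cells, which make keratins 5 and 14, and luminal cells, which make keratins 7, 8 and 18 and the uroplakins. Bladder tumor cells can also secrete chemokines and colony-stimulating factors that draw in and sustain neutrophils and macrophages.

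Recovered depth was similar, at 18196199 to 22759845 reads a library, with 21271776 in SRT1720 3 and 19957583 in Vehicle 3. Values are TPM as deposited, and differences are on the log2(TPM + 1) scale, chromosome 3-low minus other, fitted with treatment as covariate; ratios are the mean TPM of the 2 libraries over that of the other 4. A mean of at least 1 TPM was reached by 9287 of 51912 gene IDs, among them 407 on chromosome 3, of which 343 were protein-coding, and 8880 elsewhere. The other 4 libraries did not form one uniform set. Across genes, deviations from the treatment mean ran together in SRT1720 1 and Vehicle 2 (r = 0.72), in SRT1720 2 and Vehicle 1 (r = 0.68) and in SRT1720 3 and Vehicle 3 (r = 0.79), with no test, since genes are not replicates.

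The organoids carried epithelial RNA. Epcam, an adhesion protein of epithelia, was at 191 TPM in SRT1720 3 and 177 in Vehicle 3, against 69.4 to 106 in the other 4 libraries. Of the uroplakins, defining markers of the umbrella cell layer, Upk3a was at 0 in all 6 libraries. Upk1a reached at most 1.34 TPM, or 90 reads, in Vehicle 2. The leukocyte gene Ptprc was at most 0.0129 TPM and Cd3e was at 0 in every library.

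The promoters printed next belong to genes outside chromosome 3 that stood far apart between the 2 sets of libraries: Cxcl1, Lcn2 and Ctsz were nearly absent from the chromosome 3-low libraries, and Sncg and Dmkn were prominent in them. Cxcl1 and Lcn2 had the largest differences of the lower genes and Sncg and Dmkn of the higher ones, while Ctsz is shown because it holds the motif described next. They are RefSeq sequences on GRCm38.p6, from 250 bases before to 50 bases after the gene start, 5′ to 3′ on the gene's strand. Capitals mark matches to GGG, any 3 bases and then TTCC, a reduced form of the binding motif of the inflammatory transcription factor NF-kB, searched on both strands with overlapping matches counted. The windows are chr5:90890995-90891294 on the plus strand for Cxcl1, chr2:32387690-32387989 on the minus strand for Lcn2, chr2:174438990-174439289 on the minus strand for Ctsz, chr14:34374620-34374919 on the minus strand for Sncg and chr7:30763506-30763805 on the plus strand for Dmkn.
Cxcl1: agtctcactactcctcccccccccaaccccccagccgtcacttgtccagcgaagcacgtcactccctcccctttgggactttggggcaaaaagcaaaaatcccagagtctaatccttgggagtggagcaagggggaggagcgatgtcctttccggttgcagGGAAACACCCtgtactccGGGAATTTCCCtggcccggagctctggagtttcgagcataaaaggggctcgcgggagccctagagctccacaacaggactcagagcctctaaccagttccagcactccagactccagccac
Lcn2: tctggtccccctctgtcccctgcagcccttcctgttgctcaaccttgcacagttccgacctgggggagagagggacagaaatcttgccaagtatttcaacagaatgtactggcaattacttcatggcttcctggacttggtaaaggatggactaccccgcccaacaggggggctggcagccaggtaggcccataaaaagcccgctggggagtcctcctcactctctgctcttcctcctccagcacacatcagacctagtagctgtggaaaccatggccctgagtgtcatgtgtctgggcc
Ctsz: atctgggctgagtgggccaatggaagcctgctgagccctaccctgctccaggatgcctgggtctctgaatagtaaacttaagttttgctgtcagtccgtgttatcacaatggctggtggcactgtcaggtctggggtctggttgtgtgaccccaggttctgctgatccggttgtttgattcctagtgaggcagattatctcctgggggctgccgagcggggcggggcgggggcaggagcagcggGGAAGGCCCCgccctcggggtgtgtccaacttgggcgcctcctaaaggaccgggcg
Sncg: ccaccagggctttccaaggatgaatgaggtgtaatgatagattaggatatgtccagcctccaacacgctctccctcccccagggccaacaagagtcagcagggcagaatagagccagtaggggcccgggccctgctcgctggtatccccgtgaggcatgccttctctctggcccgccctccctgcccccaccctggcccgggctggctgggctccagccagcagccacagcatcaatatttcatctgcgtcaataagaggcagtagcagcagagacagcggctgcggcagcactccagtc
Dmkn: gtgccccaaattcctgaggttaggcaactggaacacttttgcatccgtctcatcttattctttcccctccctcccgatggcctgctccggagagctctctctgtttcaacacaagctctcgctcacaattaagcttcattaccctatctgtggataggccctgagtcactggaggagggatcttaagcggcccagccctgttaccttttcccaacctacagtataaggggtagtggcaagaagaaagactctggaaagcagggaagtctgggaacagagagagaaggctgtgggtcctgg
The Cxcl1 window held 3 matches, of which 2 overlap on opposite strands, and the Ctsz window held 1. Lcn2, Sncg and Dmkn held none, and neither did the other 5 lower named genes with a promoter in the table. The motif was present in 1493 of 27025 promoters of this length (5.52%).

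Chromosome 3 genes were low over nearly the whole chromosome, in both treatments and by a similar amount. The median deviation of the 407 genes from their mean over libraries was -0.39 in SRT1720 3 and -0.41 in Vehicle 3, against 0.26 in SRT1720 1, 0.14 in SRT1720 2, 0.19 in Vehicle 1 and 0.20 in Vehicle 2. These are the values that chose the libraries. Chromosome 3 supplied 2.09% of the protein-coding signal in each of the 2 libraries and 3.31% to 3.62% in the other 4. For genes elsewhere the same median deviation lay between -0.04 and 0.06 in all 6 libraries.

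**Figure D1:**
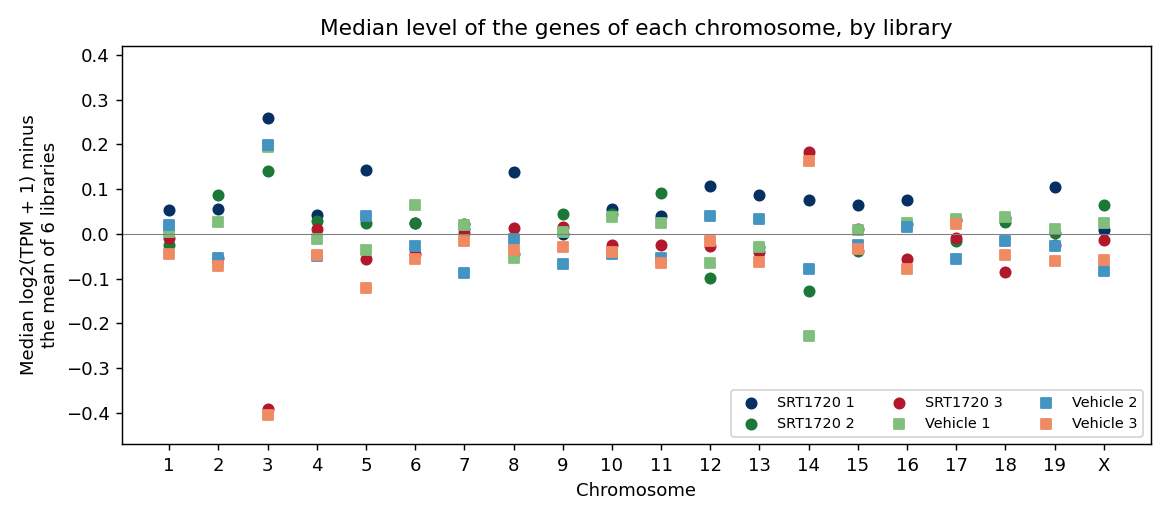
Median deviation of tested genes from their mean over the 6 libraries, log2(TPM + 1), by chromosome (horizontal axis), with 1 point a library. On chromosome 3 the SRT1720 3 and Vehicle 3 points lie near -0.4, apart from the other 4, and on chromosome 14 the same libraries are the highest points.

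Both low libraries lay below all 4 others in 279 of the 407 chromosome 3 genes, or 68.6%, against 14.4% of genes elsewhere. They lay above all 4 others in 9 chromosome 3 genes, or 2.21%, against 11.4% elsewhere. Because the libraries were chosen for this pattern, nothing is read from these counts. The median difference was -0.60 over chromosome 3 and -0.05 elsewhere. For the 343 protein-coding genes the median difference was -0.66, the median ratio was 0.512, and the middle 50% of ratios ran from 0.422 to 0.61. A ratio between 0.35 and 0.7, a window set after the values were seen, held 252 of these genes (73.5%) and 969 protein-coding genes elsewhere (12.5%).

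The lowering was alike in the 2 treatments. Among protein-coding genes of chromosome 3 the median difference was -0.63 within SRT1720 and -0.66 within Vehicle, and 316 of 343 (92.1%) were lower in both. Of all genes elsewhere, 42.4% were lower in both. Each treatment gives 1 low library for this comparison, so there is no replicate within it.

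The ratio was similar over gene levels up to 30 TPM. It had a median of 0.512 for the 185 protein-coding genes with a mean of 1 to 3 TPM, 0.491 for 119 genes at 3 to 10 TPM and 0.536 for 30 genes at 10 to 30 TPM. The 9 genes above 30 TPM had a median of 0.752, and they include S100a11 and Rps3a1. Pseudogenes assigned to chromosome 3 gave a different picture: the 58 tested had a median ratio of 0.984, close to the 0.945 of 927 pseudogenes elsewhere. Pseudogenes often share sequence with genes on other chromosomes, and the sources used here do not say how the authors counted such reads.

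**Figure D2:**
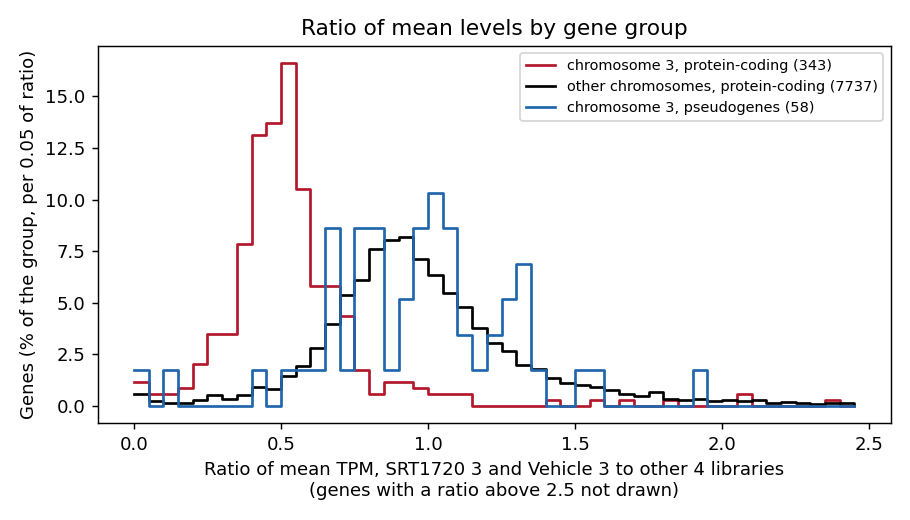
Share of each gene group (vertical axis, percent per 0.05 of ratio) by ratio of mean TPM, SRT1720 3 and Vehicle 3 over the other 4 libraries, for protein-coding genes of chromosome 3 (red) and other chromosomes (black) and pseudogenes of chromosome 3 (blue). Their medians are 0.512, 0.95 and 0.984.

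Along the chromosome the genes were low in each of 16 windows of 10 Mb. The window medians ran from -0.29, for 10 genes between 20 and 30 Mb, to -0.78, for 25 genes between 130 and 140 Mb. The window with the most genes, 90 to 100 Mb with 81 genes, had a median of -0.66, and 53 of its genes were lower without overlap. Both ends were low too, with a median of -0.51 for the 7 genes of the first window and -0.57 for the 16 genes of the last. Other chromosomes, leaving out 14, Y and the mitochondrial genome, had medians between -0.14 (chromosome 5) and -0.01 (chromosome 9). The 6 tested genes of Y had a median of 0.61 and the 16 mitochondrial genes one of 0.21.

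**Figure D3:**
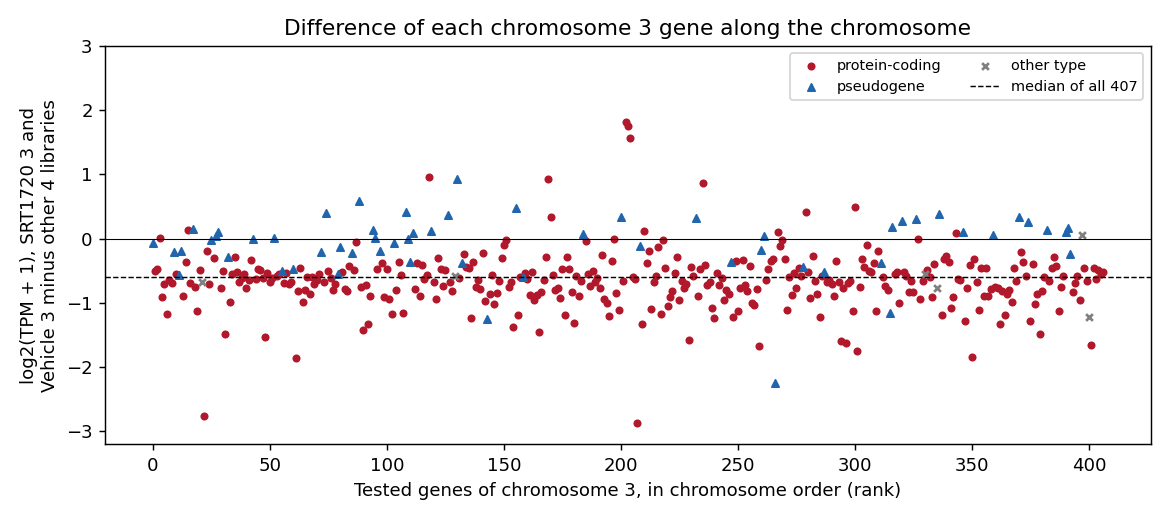
Difference in log2(TPM + 1), chromosome 3-low minus other libraries, for each tested chromosome 3 gene in its order along the chromosome, marked by gene type, with the median of all 407 as a dashed line. Of the 407 points 361 lie below 0, with the pseudogenes nearer 0 than the protein-coding genes.

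Among the autosomes and X, chromosome 14 was displaced the other way. Its 334 tested genes had a median difference of 0.26 and a median ratio of 1.24, and 101 of them (30.2%) were higher without overlap, against 11.4% of all genes elsewhere, while 6 (1.8%) were lower, against 14.4%. Median deviations on chromosome 14 were 0.18 in SRT1720 3 and 0.16 in Vehicle 3. They were 0.08 in SRT1720 1, -0.08 in Vehicle 2, -0.13 in SRT1720 2 and -0.23 in Vehicle 1. The 2 low libraries were thus the highest on this chromosome, but the gap to SRT1720 1 was smaller than the range among the other 4.

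Protein complexes with subunits encoded on and off chromosome 3 allow subunits of one particle to be compared by location. Of 32 proteasome subunits, the core of the protein-degrading particle and its cap, 3 lie on chromosome 3. Psmb4, a beta subunit of the core, was at 13.2 TPM in SRT1720 3 and 10.9 in Vehicle 3, against 32.1, 30.6, 24.2 and 27.0 in SRT1720 1, SRT1720 2, Vehicle 1 and Vehicle 2. Psma5, an alpha subunit, was at 7.63 and 7.46, against 17.9, 19.8, 15.3 and 18.2. Psmd4, a ubiquitin receptor in the cap, was at 3.97 and 3.78, against 10.6, 8.999, 7.39 and 9.67. Neither low library overlapped the other 4 for any of the 3, and the ratios were 0.422 to 0.424. The 29 subunits encoded elsewhere had a median ratio of 0.849, with 4 lower without overlap, near the 14.4% of all genes elsewhere.

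In the cytosolic chaperonin, the ring that folds actin and tubulin, Cct3 is the chromosome 3 subunit. It was at 5.87 TPM in SRT1720 3 and 3.91 in Vehicle 3, against 9.69, 13.2, 8.64 and 7.37 in the other 4, with no overlap and a ratio of 0.504. The 7 subunits encoded elsewhere had ratios of 0.802 to 0.989. In the mitochondrial ATP synthase, the subunit gene Atp5f1 was at 7.09 and 5.45, against 18.9, 14.9, 13.4 and 16.9. The groups did not overlap, and the ratio was 0.391. The other chromosome 3 members of the respiratory list are the complex I subunits Ndufc1, with a difference of -0.98, and Ndufb5, with -0.33. Ndufc1 did not overlap, whereas Ndufb5 did. The 69 nuclear genes of the list encoded elsewhere had a median ratio of 0.864, with a range of 0.526 to 1.21. Of these 69 genes, 59 had a difference below 0 and 18 were lower without overlap (against 14.4% of all genes elsewhere).

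Of 78 cytosolic ribosomal protein genes, 3 lie on chromosome 3. Rps3a1 was at 112.7 TPM in SRT1720 3 and 177.2 in Vehicle 3, against 255.3, 202.1, 266.4 and 284.9, so it did not overlap. Rpl34 had a difference of -0.78 and a ratio of 0.569, whereas Rps27 had a difference of -0.03 with an SE of 0.57 and its values overlapped. The 75 ribosomal protein genes elsewhere had a median ratio of 1.09. Ribosomal protein genes have many processed copies, so reads may be split among them. Beside these values, the list of 15 mitochondrially encoded genes had a median difference of 0.20, and the summed mitochondrial ribosomal RNA was 702 TPM in SRT1720 3 and 1562 in Vehicle 3, against 135 to 198 in the other libraries. Its part in the differences was not tested.

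Some chromosome 3 genes were far lower than the block: 18 of 343 protein-coding genes (5.25%) had a ratio under 0.25. Elsewhere 106 of 7737 (1.37%) did. Of the 18, 11 had a mean of 1 to 3 TPM. Cp, the copper-carrying ferroxidase ceruloplasmin, was at 0.022 TPM in SRT1720 3 and 0.041 in Vehicle 3, against 5.65, 3.45, 6.59 and 9.58 in SRT1720 1, SRT1720 2, Vehicle 1 and Vehicle 2. That is 21 and 36 reads against 3311 to 7699, and a difference of -2.76 (SE 0.26). Csf1, the growth factor of macrophages, was at 0.224 and 0.318 TPM, against 3.29, 1.63, 4.17 and 2.77. For both genes the 2 libraries lay below all 4 others, which the rule that named them required. Both reached a mean of 1 TPM only through the other 4.

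The 14 lowest were picked among genes without overlap, so their lack of overlap was fixed by the choice. Of them, 3 belong to the ATF4 list described below. Slc7a11, which imports cystine, was at 2.73 TPM in SRT1720 3 and 1.23 in Vehicle 3, against 11.1, 8.30, 8.46 and 10.5 (difference -1.87, SE 0.23). Phgdh, the first enzyme of serine synthesis, was at 15.3 and 14.4, against 62.6, 32.7, 45.0 and 65.9 (-1.68, SE 0.31). Sars, which charges serine onto its tRNA, was at 5.08 and 6.07, against 24.9, 12.8, 23.7 and 25.1 (-1.74, SE 0.27). ATF4 is a stress transcription factor that induces such genes, and none of the 3 overlapped. Among the other 4, all 3 were lowest in SRT1720 2, though Slc7a11 only narrowly (8.30 against 8.46 in Vehicle 1).

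Cers2, which makes very-long-chain ceramides, was at 3.41 TPM in SRT1720 3 and 2.58 in Vehicle 3, against 12.2, 8.27, 10.7 and 12.7. Anxa5, a protein that binds phosphatidylserine, was at 8.06 and 11.6, against 33.5, 23.3, 32.9 and 30.8. Neither overlapped. Sgms2, a sphingomyelin synthase, had a difference of -1.84 (SE 0.56), and Gstm1, a glutathione transferase, one of -1.63 (SE 0.34). Of the remaining members of the 14 lowest, Fndc3b, Clca3b, Krtcap2 and Serp1 had differences of -1.42 to -1.48.

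The epidermal differentiation cluster on chromosome 3 was mixed. Sprr1a, a small proline-rich protein of the cornified envelope, was at 1.51 TPM in SRT1720 3 and 3.57 in Vehicle 3, against 41.9, 7.29, 17.1 and 57.9. Its neighbour Sprr2a1 was at 164.0 and 106.8, against 15.2, 124.7, 113.5 and 7.83, so SRT1720 3 was the highest of all 6 and Vehicle 3 lay inside the range of the others. The low values of Sprr2a1 were in SRT1720 1 and Vehicle 2. Sprr2a1, Sprr2a2 and Sprr2a3 are near-identical copies, so their reads may be divided arbitrarily. The 8 tested S100 genes, small calcium-binding proteins, all lie on chromosome 3 and had a median difference of -0.61. Only S100a13 and S100a1 were lower without overlap, at ratios of 0.257 and 0.297, and S100a16 had a ratio of 0.967. Of all protein-coding genes of chromosome 3, 77.8% were lower without overlap, and of genes elsewhere 14.4%.

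Few chromosome 3 genes went the other way. A ratio above 1 was found for 15 of 343 protein-coding genes (4.37%), against 42.8% of those elsewhere. In 3 (0.875%) both low libraries were higher than all others, against 11.9% elsewhere. Efna3, a membrane-bound ligand of Eph receptors, was at 1.92 TPM in SRT1720 3 and 3.07 in Vehicle 3, against 0.404, 0.964, 0.858 and 1.11. Its neighbour Efna4, another such ligand, was at 1.93 and 2.22, against 1.22, 1.39, 1.66 and 1.499. Celsr2, a planar polarity cadherin, was at 2.13 and 2.26, against 0.648, 1.46, 1.43 and 1.70. Gclm, the regulatory subunit of the first enzyme of glutathione synthesis, overlapped, with a difference of -0.01 (SE 0.41).

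Outside chromosome 3, many genes differed by far more than the chromosome 3 block. With limma's adjusted p at 0.05 as a cut on 8880 genes, 70 were lower (0.788%) and 140 higher (1.58%) in the low libraries. Because the libraries were grouped from the same table, these counts describe them and support nothing. They also rest on particular libraries: 0 genes passed without SRT1720 3 or without Vehicle 3, where 1 low library is assumed to vary like the others, 16 without SRT1720 1, 24 without Vehicle 2, 88 without Vehicle 1 and 129 without SRT1720 2.

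Cxcl1, a chemokine for neutrophils, was at 0.026 TPM in SRT1720 3 and 0.014 in Vehicle 3, against 91.8, 21.8, 30.5 and 80.3 in SRT1720 1, SRT1720 2, Vehicle 1 and Vehicle 2 (difference -5.56, SE 0.62). The low values are 4 and 2 reads. Cxcl5, which acts through the same receptor, was at 0.987 and 0.830, against 105.7, 28.8, 23.3 and 129.8 (-4.89, SE 0.77). Csf3, the growth factor of granulocytes, was at 1.80 and 0.742, against 156.7, 24.8, 31.7 and 107.0 (-4.80, SE 0.80). For all 3 the 2 libraries lay below all others, and SRT1720 1 and Vehicle 2 were the highest.

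In the next genes SRT1720 1 and Vehicle 2 were again the highest libraries. Lcn2, a protein that binds bacterial iron carriers, was at 0.157 TPM in SRT1720 3 and 0.473 in Vehicle 3, against 53.3, 14.2, 40.9 and 108.2 (-5.08, SE 0.61). Ctsz, a lysosomal protease, was at 0.176 and 0.310, against 40.4, 14.3, 18.5 and 45.0 (-4.47, SE 0.49). Cd14, a co-receptor for bacterial lipopolysaccharide, was at 1.04 and 1.24, against 26.5, 8.59, 8.97 and 14.5. No value of these overlapped.

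Slc39a4, a zinc importer, was at 0.473 TPM in SRT1720 3 and 0.611 in Vehicle 3, against 18.0, 12.01, 13.8 and 15.5 (-3.35, SE 0.20). Krt7, a luminal keratin, was at 0.803 and 1.82, against 15.6, 10.3, 14.9 and 15.4 (-2.72, SE 0.21). Both stood apart from all 4 by more than the spread between them. Spp1, a secreted matrix protein, Tspan8, a tetraspanin, Cxcl15, a chemokine, and Agr2, a disulfide isomerase of secretory cells, had differences of -3.15, -3.11, -3.06 and -2.79, all without overlap. Among the lower genes, Cxcl1, Lcn2, Cxcl5, Ctsz, Slc39a4, Tspan8, Cxcl15 and Agr2 reached a mean of 1 TPM only through the other 4 libraries.

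Taking every chemokine ligand by its symbol, a grouping made after the data were seen, 11 of 44 genes passed the filter. Of these 9 had a difference below 0, 5 were lower without overlap (14.4% of genes elsewhere were) and the median was -1.26. A ratio under 0.25 was found for 6 of the 11. Cxcl1, Cxcl5 and Cxcl15 passed the filter only through the other 4 libraries, so these counts depend in part on the filter. All 11 lie outside chromosome 3, and only Cxcl1, Cxcl5 and Cxcl15 are among the genes named above by rule. Nfkbia, the inhibitor that NF-kB itself induces, was at 17.6 TPM in SRT1720 3 and 20.2 in Vehicle 3, against 46.5, 18.6, 24.3 and 23.9. SRT1720 3 was the lowest library and Vehicle 3 lay above SRT1720 2. Nfkbia was named after its values were seen. Of the 8 lower named genes with a promoter in the RefSeq table, 2 held the motif printed above, and of the 45 lower genes with one, 4 did (8.89%). The share was 5.71% for the 105 higher genes and 6.42% for all tested protein-coding genes with a promoter.

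**Figure D4:**
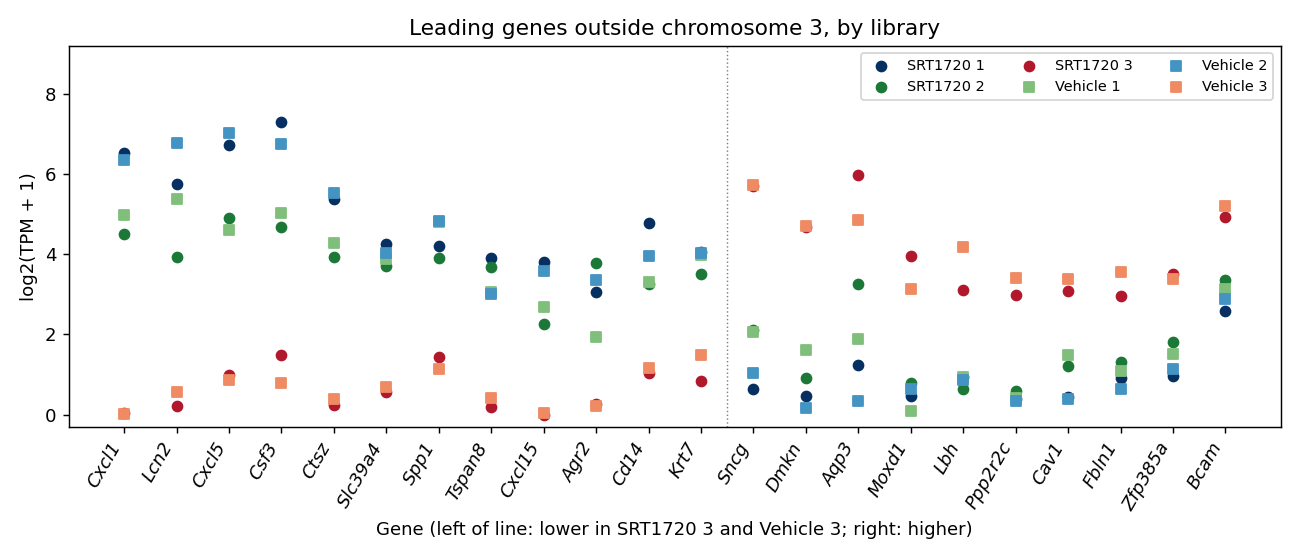
Values in each library, log2(TPM + 1), of genes named by rule outside chromosome 3, with 1 point a library. The rule took only genes without overlap. SRT1720 3 and Vehicle 3 therefore lie below every other library left of the dotted line and above every other library right of it.

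Among the higher genes, Sncg, gamma-synuclein, was at 51.6 TPM in both SRT1720 3 and Vehicle 3, against 0.565, 3.35, 3.17 and 1.05 in SRT1720 1, SRT1720 2, Vehicle 1 and Vehicle 2 (difference 4.25, SE 0.47). It lies on chromosome 14. Dmkn, dermokine, a secreted protein of stratified epithelium, was at 24.5 and 25.3, against 0.376, 0.871, 2.05 and 0.121 (3.91, SE 0.39). Moxd1, a relative of the copper enzyme dopamine beta-hydroxylase, was at 14.7 and 7.77, against 0.378, 0.721, 0.063 and 0.554 (3.06, SE 0.23). In all 3 the 2 libraries exceeded the highest other library by far more than the range among the 4.

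Aqp3, a water and glycerol channel, was at 62.5 TPM in SRT1720 3 and 28.2 in Vehicle 3, against 1.35, 8.58, 2.71 and 0.274 (3.74, SE 0.64). The 2 low libraries differed from each other in Aqp3 more than in Sncg or Dmkn, but not enough to overlap the rest. Lbh, Ppp2r2c, Cav1, Fbln1, Zfp385a and Bcam had differences of 2.08 to 2.80, all without overlap. Among the higher genes, Dmkn, Moxd1, Lbh, Ppp2r2c and Cav1 reached a mean of 1 TPM only through the 2 low libraries. Bcam is a laminin receptor, Cav1 the coat protein of caveolae and Fbln1 an extracellular matrix protein.

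Basal genes were high in the 2 libraries, though not in them alone. Of 20 basal urothelial genes all 20 had a difference above 0, and 12 were higher without overlap (11.4% of genes elsewhere were), with a median of 1.71 against -0.06 over all tested genes. Krt5 was at 1120 TPM in SRT1720 3 and 741 in Vehicle 3, but also at 616 in SRT1720 2 and 425 in Vehicle 1, and at 16.4 in SRT1720 1 and 9.61 in Vehicle 2. The first 4 were thus high and the last 2 low. Col17a1, a hemidesmosome collagen, was at 57.8 and 52.6, against 1.45, 24.0, 21.97 and 1.56. Over the alternatives run, the list's median ranged from 0.587 to 2.91.

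Luminal genes divided. Of 14 tested, 7 lay above 0 and 7 below, 5 were lower and 4 higher without overlap (against 14.4% and 11.4% of genes elsewhere), and the median was 0.11, with the sign changed in 4 of 18 settings. Krt18, a simple-epithelial keratin, was at 25.3 TPM in SRT1720 3 and 29.2 in Vehicle 3, against 226, 57.6, 48.0 and 162 in SRT1720 1, SRT1720 2, Vehicle 1 and Vehicle 2. Gata3, a transcription factor of luminal urothelium, was at 0.192 and 0.202, against 1.26, 2.24, 3.71 and 2.37. Cldn7, a tight-junction protein, was at 21.9 and 19.5, against 19.97, 0.170, 0.208 and 13.3, and so resembled SRT1720 1 and Vehicle 2.

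Stress and secretory genes were low, though the ATF4 genes were not low in the 2 libraries alone. All 30 genes of the ATF4 list, which covers amino acid synthesis, transport and tRNA charging, had a difference below 0, with 14 lower without overlap (16.8% of all tested genes were) and a median of -1.18. The 3 members on chromosome 3, whose values were among those that chose the libraries, had a median of -1.74. The 27 elsewhere had a median of -1.11, and 11 of these were lower without overlap (against 14.4% of genes elsewhere). Summed over the list, SRT1720 2 was at 388 TPM, near the 254 of SRT1720 3 and the 332 of Vehicle 3. SRT1720 1, Vehicle 1 and Vehicle 2 were at 883, 752 and 994. Trib3, a feedback inhibitor of the ATF4 response, was at 2.84 TPM in SRT1720 3 and 4.95 in Vehicle 3, against 30.7, 3.79, 28.9 and 34.0. SRT1720 2 thus overlapped for Trib3. Of 20 endoplasmic reticulum chaperone genes 18 lay below 0, 6 without overlap (against 14.4% of genes elsewhere), with a median of -0.51. This was -0.15 within SRT1720 and -0.81 within Vehicle, and Vehicle 2 was the highest of the 6 libraries: Hspa5, its main chaperone, was at 221 TPM there and at 30.02 to 61.3 in the other 5. Of 22 p53 target genes 16 lay below 0 (median -0.42), while Phlda3 and Perp were at ratios of 3.71 and 2.59.

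Interferon and hypoxia genes leaned up. All 16 tested interferon response genes had a difference above 0, 7 without overlap (against 11.4% of genes elsewhere), with a median of 0.63. The median was 0.25 within SRT1720, the value also found without Vehicle 3, and 1.05 within Vehicle. Isg15, a ubiquitin-like protein induced by interferon, was at 15.6 TPM in SRT1720 3 and 28.3 in Vehicle 3, against 18.4, 1.53, 0.808 and 7.55, so SRT1720 1 overlapped. Of 20 HIF targets 17 lay above 0, 8 without overlap (against 11.4%), with a median of 0.55. Bnip3l, a mitophagy receptor, was at 7.70 and 10.2, against 4.18, 3.63, 4.39 and 4.40. It lies on chromosome 14, whose tested genes had a median difference of 0.26. Ddit4, an inhibitor of mTORC1 and also a stress gene, was lower, at 44.4 and 38.2, against 81.9, 57.4, 133.1 and 100.2.

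Proliferation genes off chromosome 3 lay on both sides of 0. The 42 S phase genes, none of them on chromosome 3, had a median of 0.01, with 23 above 0 and 19 below. The 36 mitosis genes elsewhere had one of 0.09, with 22 above 0 and 14 below. The sign of the S phase median, and of the median of all 41 mitosis genes, varied with the setting. The 5 mitosis genes on chromosome 3 had a median of -0.68. Among them Ect2, which is needed for cytokinesis, was at 2.85 TPM in SRT1720 3 and 2.74 in Vehicle 3, against 6.67, 5.03, 6.28 and 4.29, and Cks1b, a cyclin-dependent kinase subunit, was at 11.97 and 12.5, against 21.3, 24.7, 27.9 and 14.2. Neither overlapped.

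**Figure D5:**
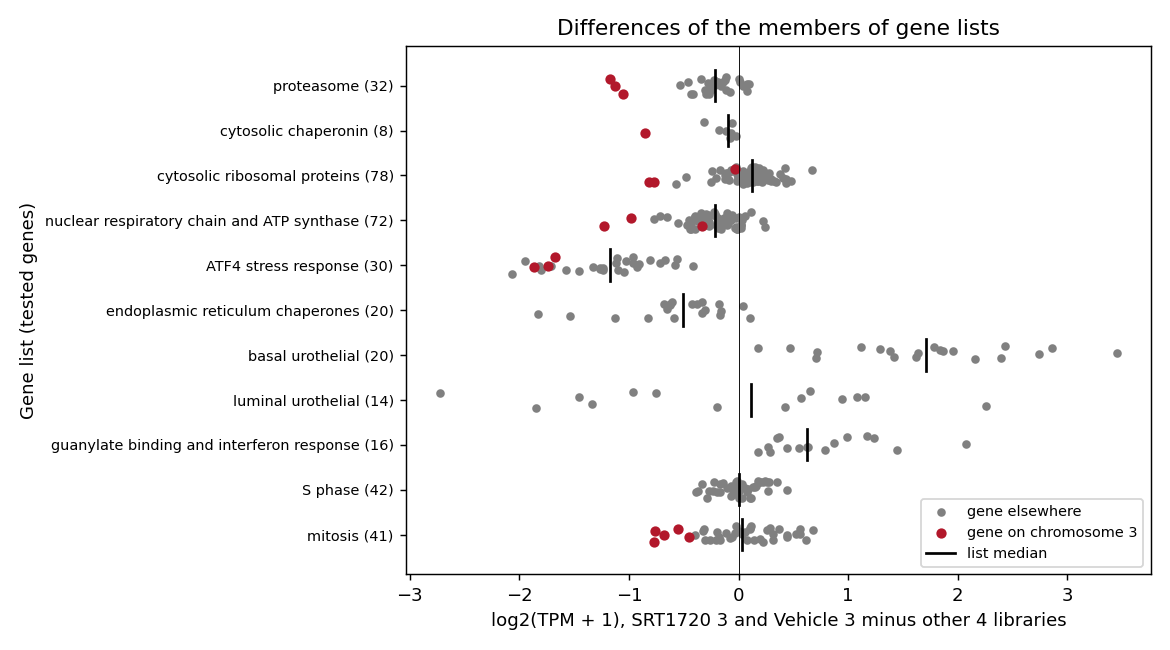
Difference in log2(TPM + 1), chromosome 3-low minus other libraries (horizontal axis), with 1 point a tested gene for 11 gene lists, red on chromosome 3 and grey elsewhere, and a bar at each list's median. The ATF4 median lies at -1.18 and the basal one at 1.71, and the red points of the proteasome lie left of all its grey ones.

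Marker genes of fibroblasts and leukocytes had lower sums in the 2 low libraries, while those of endothelium and smooth muscle did not. The 16 fibroblast markers summed to 0.251 TPM in SRT1720 3 and 1.16 in Vehicle 3, against 7.12 to 29.2 in the other 4. In the 2 low libraries 8 and 7 of the 16 were at 0, among them Dcn, Col3a1 and Col1a2 in both. In SRT1720 1 and Vehicle 2, 4 and 3 were at 0. Col1a2 was also at 0 in these, and Col3a1 was at only 0.046 and 0.029 TPM. Vim, vimentin, was the highest of the list, at 0.071 and 0.647, against 4.99, 14.3, 17.0 and 4.95. In a bulk sample fewer cells of a type and less RNA per cell cannot be told apart. The 22 leukocyte markers summed to 2.45 and 4.82 TPM, against 17.5 to 31.5, with 11 and 12 at 0, and the highest marker of each library was Cd14, Lyz2 or Cd68. Lyz2 was also at 0 in SRT1720 1 and Vehicle 2. There Cd14 alone gave 26.5 of 28.7 TPM and 14.5 of 17.5 TPM. Cd14 was itself named above by the rule for lower genes, and against SRT1720 1 and Vehicle 2 the lower leukocyte sums rest largely on it. Of the 4 tested leukocyte markers 3 had a difference below 0. Cd68 went the other way with overlap, at 1.03 and 3.09 TPM in SRT1720 3 and Vehicle 3 (ratio 1.52). The 15 endothelial markers summed to 0.714 to 1.68 TPM, and the 10 smooth muscle markers to 2.47 to 7.18, in the 6 libraries. Which cells made this RNA, and its part in the differences above, were not tested.

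Treatment comes from the labels, and each class holds both treatments, but the class term used as covariate was itself chosen from these values. With that term, limma's Benjamini-Hochberg adjusted p was under 0.05 for 2 of 9287 genes (0.0215%), both higher with SRT1720, and 1589 had an unadjusted p under 0.05. Mt1, a metallothionein that binds zinc and copper, was at 65.8, 60.1 and 110.2 TPM in SRT1720 1, 2 and 3, against 8.56, 11.7 and 11.8 in Vehicle 1, 2 and 3, a difference of 2.73 (SE 0.21, limma adjusted p = 0.0446). Dhx9, an RNA helicase, was at 9.23, 9.34 and 10.99, against 1.996, 1.96 and 2.91, a difference of 1.73 (SE 0.13, limma adjusted p = 0.0446). SRT1720 was higher in 3 of 3 libraries, with no overlap, in both genes, and the chromosome 3-low library was the highest SRT1720 sample of each. Leaving out any 1 of the 6 libraries left 0 genes past the threshold. Without the class term limma also called 0 of 9287, with 1153 unadjusted, and the adjusted p of both Mt1 and Dhx9 was 0.132. That fit was added after the data were seen. Hmgn2-ps1, a pseudogene, and Dhrs4, a carbonyl reductase, came next with differences of 1.64 and 1.46 and an adjusted p of 0.0933 each, and then Eef1akmt1, a lysine methyltransferase, with 1.23 and 0.0972, all by limma.

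On chromosome 3 none of 407 genes passed for treatment with limma, with a smallest adjusted p of 0.106, although 53 had an unadjusted p under 0.05. The median treatment difference there was 0.00, and voom on recovered reads also called 0 of 406, with 57 unadjusted. Whether SRT1720 acted differently in the low libraries was tested as an interaction of treatment and class. It passed for 0 of 9287 genes with limma (0.0%; 70 unadjusted; smallest adjusted p 1.0), and voom called 0 with 45 unadjusted. This test has 1 low library in each treatment and assumes that it varies like the others. The smallest interaction p belonged to Ppbp, a platelet chemokine, at 0.369 TPM in SRT1720 3 and 5.04 in Vehicle 3, against 1.25 and 1.69 in the other SRT1720 libraries and 0.987 and 0.529 in the other Vehicle libraries. Of the next 4, Snord69, Gm6020, Ier5l and Hunk, none passed either.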

How the data were processed

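RNA was measured in 6 libraries, grouped by their titles, and the authors deposited TPM values for 51912 gene IDs. The submitters' processing notes name STAR 2.6.0 and the build GRCm38. How the authors counted reads, set gene lengths and handled reads with several positions is not given in the sources used here. Deposited columns sum to 161231 to 171577, not to the total that defines TPM, so values are read as relative levels between libraries and not between genes. Steps in the TPM values gave whole reads for 27675 of 27713 IDs above 0 (99.86%, within 0.01 reads). No libraries of a group agreed within sampling noise (median chi-square per gene 18.2 to 42.6). Names, types and positions came from GENCODE M21 on GRCm38, which matched 51719 IDs.

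Genes averaging 1 TPM or more were fitted with limma 3.58.1 in R 4.3.3 on log2(TPM + 1), with library class and treatment as terms, a mean trend and Benjamini-Hochberg adjustment over 9287 genes at 0.05. The fit was tested on simulated data. Members and gene lists were chosen with earlier results of these data known. Named genes are protein-coding: on chromosome 3 the 14 lowest and up to 5 highest without overlap, elsewhere the 12 lowest and 12 highest past the threshold without overlap, up to 4 a list, every chromosome 3 member of the complexes, S100 and glutathione families, and the 5 smallest treatment and interaction p-values of any gene type. Some genes that this rule picks are not reported here. Epcam, the uroplakins, Ptprc, Cd3e, Dcn, Col3a1, Col1a2, Nfkbia, Sprr2a2 and Sprr2a3 were named after their values were seen. Alternatives covered the pseudocount, filter, scaling, block, gene types, comparison libraries and single libraries left out. Voom on recovered reads and a treatment fit with no class term were added after the data were seen. Python 3.11.15 with pandas 2.3.3, numpy 2.4.6 and matplotlib 3.10.9 handled tables and figures.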

Additional observations from a re-analysis of the deposited data

How the results depend on the processing

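The chromosome 3 median stayed below 0 in every setting run. It was -0.85 with a pseudocount of 0.1, -0.68 for genes averaging 5 TPM or more, -0.0385 with no filter, -0.66 for protein-coding genes and -0.90 with voom on recovered reads, an alternative chosen after seeing the data. Leaving out 1 library gave -0.63 to -0.58, and comparing with SRT1720 1 and Vehicle 2 alone or SRT1720 2 and Vehicle 1 alone gave -0.64 and -0.56. The 279 genes lower without overlap became 75 with a mean of at least 5 and 500 with no filter, which change the number of genes considered. The 210 genes elsewhere past the threshold became 36 with a mean of at least 5, 29 with no filter, 1412 against SRT1720 1 and Vehicle 2 alone, 942 against SRT1720 2 and Vehicle 1 alone, and 0 to 129 with 1 library left out. The 2 treatment genes became 0 with no filter, with median-of-ratios scaling, with size factors from genes outside chromosome 3, with no class term (added after seeing the data) and with any library left out, and 11 and 358 against each of those pairs. The cause was not tested. The interaction passed for 214 genes with no filter, and 0 of these averaged 1 TPM or more. It could not be estimated without a low library or with only 4 libraries.

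The replicate numbers were not treated as pairs, since deviations of same-numbered libraries correlated at -0.20, -0.26 and 0.79. With the replicate block, 1 gene elsewhere and 0 treatment genes passed. Of 118 genes picked by rule, 108 kept their sign in all settings that gave a value, and Ccn1, Cct7, Gclm, Gsta4, Lyz2, Rps27, S100a10, S100a16, S100a9 and Smtn did not in at least 1. Medians of the S phase, YAP and TEAD, ribosomal, glutathione, luminal, mitosis and squamous lists changed sign in 1 to 4 of 18 settings. Depth limits the lowest values, such as 4 and 2 reads of Cxcl1.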
